A study of Rattus norvegicus with 6 samples.

Results

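Among the tiled regions of a DNA methylation array, 2290 were of typical size and carried short probes. They were chosen by position and design alone: neighbouring probes no more than 1000 bp apart were merged, and regions on chromosomes 1 to 20 were kept that had 6 to 20 probes with a mean probe length of at most 46 nt. They made up 15.6% of the 14683 typical-size regions and were drawn from 16123 regions in all. No measured value entered this rule, though earlier results of these data were known. Regions of the same size with a mean probe length above 46 and up to 50 nt (8040 regions, called middle-length here) and above 50 nt (4353 regions, called long) served for comparison.

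The arrays measured hearts, labelled as cardiac muscle, of newborn SD (Sprague-Dawley) rats at day 1. The 3 control samples came from offspring of dams given saline into the trachea during pregnancy. The 3 PM2.5 samples came from offspring of dams given a suspension of PM2.5, airborne particles of small diameter, by the same route and in the same volume of 30 µL. Dams of both groups were under ether anaesthesia for the instillation. The series asked about particle exposure of the mother and the methylation of DNA in the offspring's heart. The labels call the samples biological replicates but do not say whether they came from separate litters, so p-values cover only the spread among these samples, which may be partly technical. Neither the particle dose nor the pups' sex is given in the sources used here. No expression was measured, so the tissue label could not be set against marker genes.

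In methylated DNA immunoprecipitation (MeDIP), an antibody to 5-methylcytosine captures sheared, single-stranded DNA, and the captured DNA is compared with the input it came from. In mammals the mark lies mostly on CpG dinucleotides, and CpG-rich stretches known as CpG islands, many of them at gene starts, are largely free of it in most tissues, including the heart. Capture depends on how many methylated CpGs a fragment holds, so a CpG-rich stretch that is methylated is captured well and one that is free of methylation poorly. Arrays that even out melting temperature give shorter probes to DNA rich in G and C. Probe length therefore stands in for base composition here. The files used hold no probe sequence and no genome of their build (rn4) was at hand, so base composition itself, genes and sequences were not analysed here.

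On each array the immunoprecipitated DNA was labelled with Cy5 and its input with Cy3. The ratio used throughout is log2 of Cy5 over Cy3, with the median of each array set to 0. A region's value is the mean over its used probes, those whose input signal was well above background on every array and that were marked as an outlier spot on none. The short-probe regions held 22217 probes, 83.07% of them at the shortest length of 45 nt, against 57.84% in middle-length regions. In 330 short-probe regions every probe was 45 nt. Their shape was that of the other classes, with a median of 10 probes, a median span of 1672 bp (1667 bp in middle-length regions) and a median probe spacing of 162 bp in both. They were spread unevenly over the genome. They made up 25.1% of the typical-size regions of chromosome 20, 23.5% on chromosome 19 and 23.2% on chromosome 12, but 7.71% on chromosome 11 and 9.15% on chromosome 2.

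One array stood apart, and the short-probe regions were the class most touched by it. On PM2.5 replicate 1, 52.9% of the probes in these regions were marked as outlier spots, against 0.491% to 2.99% on the other 5 arrays. On the same array 40.7% were marked in middle-length and 21.7% in long regions. As a result 7868 probes (35.41%) were used, although the input signal of 90.74% of probes stood well above background on every array. The marked probes were not a neutral sample. On control replicate 1 their median Cy5 signal was 518, against 177.5 for the used probes, and on the 5 arrays other than PM2.5 replicate 1 their mean ratio was 0.17 to 0.31, against -0.06 to 0.02 for the used probes. Of the 2290 regions, 2046 had at least 2 used probes and were tested, 244 had fewer, and 40 of those had none. A tested region had a median of 4 used probes. Cy5 was well above background at 92.8% to 94.4% of the probes on control arrays and 90.1% to 92.9% on PM2.5 arrays. Correlations between arrays over the 2046 regions were 0.753 to 0.788 for the 5 pairs with PM2.5 replicate 1 and 0.862 to 0.963 for the other 10 pairs, a description over regions that share probes and centring.

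Comparing offspring of exposed and unexposed dams, short-probe regions as a whole showed no difference in mean ratio beyond the spread between arrays. Their mean was -0.01, 0.02 and 0.03 on control replicates 1 to 3 and 0.26, 0.01 and -0.06 on PM2.5 replicates 1 to 3. PM2.5 replicate 1 lay above every other array, PM2.5 replicate 2 lay among the controls and replicate 3 below them, so the groups overlapped. The difference was 0.059, from 0.01 ± 0.02 in controls to 0.07 ± 0.17 in PM2.5 (mean ± SD, n = 3 each; exact two-sided permutation p = 0.9, 0.938 after Benjamini-Hochberg adjustment over 25 comparisons of per-array values). Its sign depended on the centre and on that array. It turned to -0.128 with the centre of an array taken over only those probes that no array marked (the common centre), to -0.0664 without PM2.5 replicate 1, and to -0.0466 and -0.011 within the 2 scanning days that held both groups. PM2.5 replicate 1 was the only array of the remaining scanning day.

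Set against the other classes, the short-probe regions came closer to the rest of the array in PM2.5. Their mean ratio exceeded that of middle-length regions by 0.40, 0.49 and 0.51 on control replicates 1 to 3 and by 0.29, 0.33 and 0.29 on PM2.5 replicates 1 to 3. Every PM2.5 array lay below every control array. The difference between groups was -0.16, from 0.47 ± 0.06 to 0.30 ± 0.02 (n = 3 each, SD; exact two-sided permutation p = 0.1, and 0.179 after adjustment; 3 arrays against 3 can give no smaller p). This quantity is taken within an array and does not move with its centre. It was -0.105 and -0.173 within the 2 scanning days, and the groups stayed apart under all 12 scalings and filters tried, with differences of -0.193 to -0.0367. The excess over long regions was also smaller, with 0.98, 1.14 and 1.21 in controls against 0.75, 0.81 and 0.77 in PM2.5 (exact permutation p = 0.1, 0.179 after adjustment). Middle-length regions were themselves at -0.46 ± 0.04 in controls against -0.23 ± 0.17 in PM2.5 (n = 3 each, SD). The narrower gap thus came with higher ratios in the longer-probe classes under this centring. Cy5 detection was lower in those classes. By array it reached 80.3% to 83.5% of middle-length probes in controls and 77.1% to 81.2% in PM2.5. For long regions the shares were 53.3% to 58.5% and 50.4% to 55.3%. The filter asked only for input signal, so part of these levels and differences may rest on undetected Cy5. The same limit applies wherever these classes serve for comparison.

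**Figure D1:**
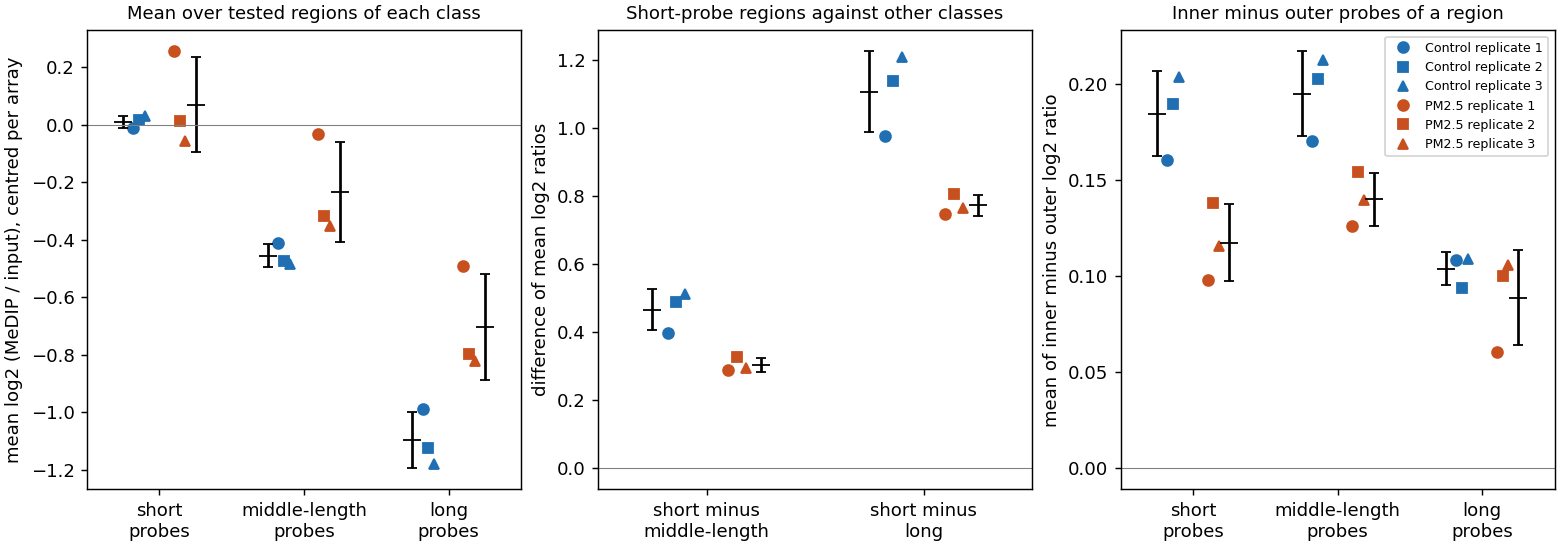
Per-array values of typical-size regions by probe-length class: mean log2 ratio of immunoprecipitated over input DNA (left), short-probe regions minus the other classes (middle), and inner minus outer probes within regions (right), with controls in blue, PM2.5 in orange, and black bars for the mean ± SD (n = 3). Short-probe means overlap between groups, while their excess over middle-length regions is 0.40 to 0.51 in controls and 0.29 to 0.33 in PM2.5.

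The difference between groups varied with the level of a region within the class. When the 2046 regions were ranked by their mean over all 6 arrays and cut into 3 sets of 682, the lowest set averaged -0.51, -0.56 and -0.56 in controls against -0.20, -0.41 and -0.47 in PM2.5. In that set 80.6% of regions were higher in PM2.5. The highest set averaged 0.45, 0.54 and 0.57 in controls against 0.69, 0.39 and 0.32 in PM2.5, and 37.8% of its regions were higher in PM2.5. The distance between the sets was 1.06 ± 0.09 in controls against 0.83 ± 0.05 in PM2.5 (n = 3 each, SD), with every PM2.5 array below every control array. The ranking used these values, so no test is given. The common centre lowers the change in both sets alike and leaves their distance as it is, so the rise of the lowest set goes from 0.18 to -0.00365 and the change of the highest set from -0.054 to -0.24. Regions with a ratio under -1 made up 3.23%, 3.81% and 4.15% of the class in controls and 0.88%, 1.56% and 2.00% in PM2.5, without overlap (exact permutation p = 0.1, 0.179 after adjustment); this share moves with the centre of an array. The standard deviation over the class was 0.48, 0.54 and 0.55 in controls against 0.49, 0.41 and 0.40 in PM2.5, and PM2.5 replicate 1 overlapped the controls (difference -0.094, exact permutation p = 0.2, 0.294 after adjustment). A narrower spread was not particular to this class. In middle-length regions it went from 0.68 ± 0.04 in controls to 0.54 ± 0.02 in PM2.5 (n = 3 each, SD). In long regions it went from 0.80 ± 0.03 to 0.66 ± 0.004, and both were without overlap (exact permutation p = 0.1, 0.179 after adjustment).

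Few short-probe regions passed the test region by region. Of 2046, 24 passed (9.83% of all tested regions did). Of these, 20 had a higher ratio in PM2.5 (0.978%, against 9.79% of all 14786 tested regions of the array) and 4 a lower one (0.196%, against 0.0473% of all), by limma at an adjusted p under 0.05 over all tested regions. At an unadjusted p under 0.05 these numbers were 157 and 47 of 2046, against 4805 and 92 of all 14786 tested regions. The groups did not overlap in 259 regions higher in PM2.5 (12.7%, against 37.9% of all) and in 117 lower ones (5.72%, against 1.9% of all). Passing or not, 59.6% of the short-probe regions were higher in PM2.5, against 83.6% of all. The median change was 0.047 in the short-probe regions and 0.24 over all tested regions, and 81.3% of the short-probe regions lay below that median of all.

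Which direction the calls took depended on the centre and on PM2.5 replicate 1. The common centre lowered the change of every region by 0.187, and then 5 short-probe regions were higher and 19 lower, 9 of the 24 being shared with the centring used here. Leaving out PM2.5 replicate 1 gave 3 higher and 21 lower regions, and 4 of the 24 were shared. With marked spots kept, 3 were higher and 15 lower, with within-array loess 8 and 11, and with no filter on input 4 and 2. Once scanning day was a block they were 55 and 54, and PM2.5 replicate 1, alone on its day, then added nothing to the comparison. No region passed by limma without control replicate 2 (at an unadjusted p under 0.05, 70 were higher and 9 lower) or without control replicate 3 (64 and 12). Nor did any with the slide that these arrays are taken to share as a random block (97 and 22). None passed in the authors' deposited values either, where the unadjusted p was under 0.05 for 8 higher and 154 lower regions. The counts under these alternatives are not set against the shares over all tested regions. They show how the calls moved and nothing particular to the short-probe regions.

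The 20 rises lay low and the 4 falls lay high in the range of the class. Their median was -1.37 on control arrays and -0.67 on PM2.5 arrays for the rises, with changes of 0.50 to 1.04, and all 20 were in the lowest of the 3 sets by level. For the falls it was 0.80 and 0.27, with changes of -0.70 to -0.49, and 3 of them were in the highest set. In 10 of the 20 rises at least 1 used probe had Cy5 well above background on no control array, so that part of the value is only a bound. A probe well above background in Cy5 is called read in what follows. In 4 of the 20 rises and in 3 of the 4 falls every used probe was well above background in Cy5 on all 6 arrays.

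**Figure D2:**
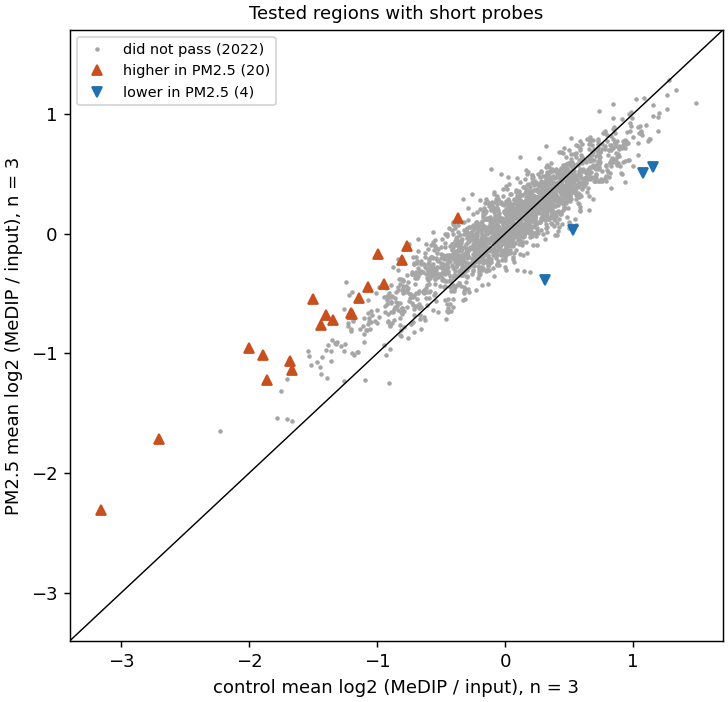
Mean log2 ratio of immunoprecipitated over input DNA in controls (horizontal) and in PM2.5 (vertical) for each of the 2046 tested short-probe regions, n = 3 arrays each, with the line of equality. The 20 regions higher in PM2.5 (triangles up) lie at low ratios and the 4 lower ones (triangles down) at higher ratios.

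Among the 5 largest rises, 2 rested on pairs of probes of which 1 was read on no array and the other on only part of them. The region chr8:113319966-113321715 (rn4; 11 probes) had -1.90, -1.96 and -2.14 in controls against -0.86, -1.32 and -0.68 in PM2.5, a change of 1.04 ± 0.17 (SE; limma adjusted p = 0.0235). It had 2 used probes, and the 52 nt probe was well above background in Cy5 on no array of either group, so its part of the rise is no measured change. The other, of 45 nt and 6 bp from the region's middle, was read on 1 of 3 control and 2 of 3 PM2.5 arrays, so no change is given for it. At chr6:133131120-133132874 (9 probes) the values were -2.61, -2.77 and -2.73 in controls against -1.39, -1.86 and -1.90 in PM2.5 (change 0.99 ± 0.16, limma adjusted p = 0.0235). There too 1 of the 2 used probes, of 52 nt, was read on no array in Cy5. The other, of 46 nt, was read on 2 of 3 control and 3 of 3 PM2.5 arrays and had means of -2.11 in controls against -0.80 in PM2.5. In the authors' deposited values both regions had the opposite sign, at -0.0654 and -0.0701. Without PM2.5 replicate 1, which also brings back the probes marked on it alone, they were at 0.0974 and 0.112 and did not pass (limma adjusted p = 0.502 and 0.341).

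The other 3 of the 5 held probes read on most arrays. At chr16:19730620-19732233 (8 probes, 2 used, both well above background in Cy5 on all 6 arrays) the ratio was -1.66, -2.14 and -1.87 in controls against -0.93, -1.12 and -0.99 in PM2.5, a change of 0.87 ± 0.15 (SE; limma adjusted p = 0.0244). Both used probes were the outer ones of one flank, and the groups did not overlap. At chr5:138357058-138358828 (9 probes, 2 used, both read on all 6 arrays) it was -0.99, -1.51 and -1.99 in controls against -0.21, -0.77 and -0.66 in PM2.5 (change 0.95 ± 0.23, limma adjusted p = 0.0363). The spread among controls there was wider than in the other named rises, with an SD of 0.50. Without PM2.5 replicate 1 the changes were 0.24 on chromosome 16, which no longer passed (limma adjusted p = 0.128), and 0.43 on chromosome 5, which did (limma adjusted p = 0.0324).

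The region chr13:86911244-86912782 (9 probes, 4 used) had the lowest control level among tested regions with at least 4 used probes. Its ratio was -3.03, -3.38 and -3.07 in controls against -2.10, -2.46 and -2.37 in PM2.5, without overlap, a change of 0.85 ± 0.15 (SE; limma adjusted p = 0.0246). Its 4 used probes averaged between -3.53 and -2.20 in controls and between -2.64 and -1.71 in PM2.5, each higher in PM2.5. Without PM2.5 replicate 1 the change of the region was 0.54 (limma adjusted p = 0.0133). With marked spots kept, the 5 rises were 0.0134 to 0.502 and 2 of them passed. The 45 nt probe at -114 bp from the middle was above background in Cy5 on 1 control array and no PM2.5 array. Its PM2.5 value and most of its control values are bounds, so its part of the rise is no measured change. Its 5 unused probes, each marked on 1 array, included 4 with control means of -0.84 to -0.23.

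The 4 falls were smaller, and most of their used probes were read on all 6 arrays. Without PM2.5 replicate 1 they were -0.399 to -0.191 and 1 of 4 passed, chr15:82827923-82829598 (limma adjusted p = 0.0244). With marked spots kept they were -0.403 to -0.218 and 1 passed. At chr5:153291494-153293203 (11 probes, 2 used) the ratio was 0.06, 0.49 and 0.37 in controls against -0.55, -0.22 and -0.39 in PM2.5, a change of -0.70 ± 0.16 (SE; limma adjusted p = 0.031). One of its 2 probes was read in Cy5 on 3 control arrays but on 1 PM2.5 array. At chr15:33968487-33970088 (10 probes, 3 used, all read on all 6 arrays) it was 0.92, 1.21 and 1.33 in controls against 0.46, 0.74 and 0.47 in PM2.5 (change -0.60 ± 0.15, limma adjusted p = 0.0403). Each of the 3 probes was lower in PM2.5, by group means of 1.69 against 1.102, 0.81 against 0.12 and 0.97 against 0.45, and all 3 were outer probes.

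The remaining falls were of the same kind. At chr15:82827923-82829598 (10 probes, 2 used, both 45 nt) the ratio was 0.98, 0.99 and 1.26 in controls against 0.41, 0.45 and 0.66 in PM2.5 (change -0.56 ± 0.14, limma adjusted p = 0.0392). At chr1:209643207-209644822 (9 probes, 3 used, all 45 nt) it was 0.54, 0.47 and 0.57 in controls against 0.10, 0.04 and -0.04 in PM2.5 (change -0.49 ± 0.13, limma adjusted p = 0.0411). In that region 1 probe, at -312 bp from the middle, went from a mean of 1.54 in controls to 0.68 in PM2.5, while the other two differed by less. The next region by p, chr20:5775011-5776220, did not pass, with 0.50 ± 0.11 in controls against 0.08 ± 0.13 in PM2.5 (n = 3 each, SD; limma adjusted p = 0.0672). Over the alternatives that tested them, these 5 regions were lower in PM2.5 each time.

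Among regions with at least 4 used probes, the highest did not separate the groups, unlike the 2 falls on chromosome 15, which had control means as high from 2 and 3 used probes. The 3 highest of them by control mean were chr10:55133043-55134767 at 1.07 ± 0.20 in controls against 0.83 ± 0.18 in PM2.5, chr19:12497170-12498860 at 1.06 ± 0.13 and 0.84 ± 0.17, and chr18:77258327-77259983 at 1.05 ± 0.23 and 0.84 ± 0.27 (n = 3 each, SD). All their used probes were read in Cy5 on all 6 arrays. Their groups overlapped and none passed (limma adjusted p = 0.289, 0.296 and 0.419). At the low end, chr10:89085186-89086859 rose from -1.43 ± 0.14 to -0.76 ± 0.14 (limma adjusted p = 0.0291), by 0.68, and by 0.28 without PM2.5 replicate 1 (limma adjusted p = 0.0467). Of its 4 used probes 2 were read on all 6 arrays. The region chr19:52148836-52150509 had -1.44 ± 0.13 and -1.18 ± 0.27 with overlapping groups (limma adjusted p = 0.27). Of its 5 used probes 2, of 48 and 50 nt, were read on no array of either group, so its level is only a bound; the other 3 had control means of -0.10 to 0.34 and PM2.5 means of -0.13 to 0.08.

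Inside the short-probe regions the change also differed with probe length. Their 5971 used probes of 45 nt averaged 0.13, 0.20 and 0.22 in controls against 0.36, 0.12 and 0.05 in PM2.5, with overlapping groups and a difference of -0.0086. The 1011 used probes of 46 to 47 nt averaged -0.30, -0.39 and -0.39 in controls against 0.05, -0.23 and -0.28 in PM2.5. The 280 probes of 51 to 60 nt averaged -0.87, -1.06 and -1.09 in controls against -0.40, -0.66 and -0.63 in PM2.5. For each length class above 45 nt every PM2.5 array was above every control array, with differences of 0.21 at 46 to 47 nt, 0.33 at 48 to 50 nt (606 probes) and 0.44 at 51 to 60 nt. Over all used probes of the array the differences were 0.031 at 45 nt, 0.24, 0.34 and 0.51 for the same classes. The common centre lowers each of these differences by 0.187. That turns none of those above 45 nt but leaves the 46 to 47 nt probes close to 0. The order of the classes does not depend on the centre. Used probes needed no Cy5 above background, and Cy5 detection was not counted by probe length. Part of these differences may therefore rest on bounds.

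On average the same held between probes of the same region, with the same limit on Cy5. In the 774 short-probe regions with used probes of both kinds, probes of at least 48 nt minus 45 nt probes of the same region averaged -0.77, -0.997 and -1.05 in controls against -0.59, -0.57 and -0.54 in PM2.5. The difference between groups was 0.37, without overlap (exact two-sided permutation p = 0.1, which no adjustment lowers), and it was 0.24 and 0.45 within the 2 scanning days. For probes of 45 nt alone, those in short-probe regions exceeded those in middle-length regions by 0.058 ± 0.012 in controls against 0.022 ± 0.015 in PM2.5 (n = 3 each, SD), again without overlap, and by less than the class means did. For probes of 48 to 50 nt this excess was 0.070 ± 0.005 in controls against 0.059 ± 0.037 in PM2.5 (n = 3 each, SD). There the groups overlapped (difference -0.011, exact permutation p = 0.8), and the difference was 0.0026 and 0.018 within the 2 scanning days. When only 45 nt probes were used, the difference between groups in short-probe minus middle-length regions was -0.0367, no region passed the limma test, and their mean differed by -0.00864 between groups.

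Within the 45 nt probes the difference also varied with level. Cut into 3 sets by the mean over all arrays, the lowest 1991 averaged -0.63 ± 0.01 in controls against -0.51 ± 0.09 in PM2.5, and every PM2.5 array was above every control array. The highest 1990 averaged 0.92 ± 0.10 in controls against 0.79 ± 0.24 in PM2.5 (n = 3 each, SD), where PM2.5 replicate 1, at 1.06, lay above the controls and the other 2 PM2.5 arrays, at 0.69 and 0.61, below them. The sets were cut by these values, so no test is given. Their differences of 0.12 and -0.13 became -0.0652 and -0.315 with the common centre, so the direction in the lowest set depends on the centre while the order of the sets does not.

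**Figure D3:**
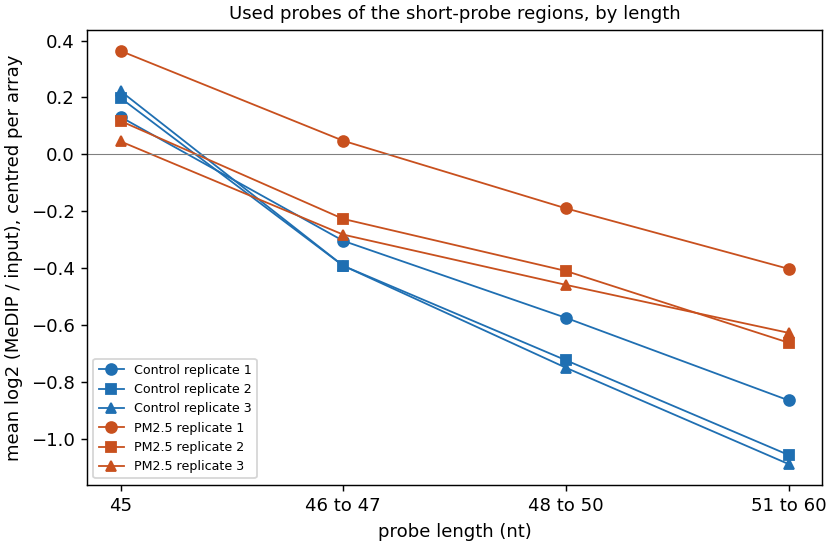
Mean log2 ratio of the used probes in short-probe regions by probe length (horizontal, nt) on each array, controls in blue and PM2.5 in orange. At 45 nt the groups overlap with means of 0.18 and 0.18, and at 51 to 60 nt every PM2.5 array (-0.66 to -0.40) lies above every control array (-1.09 to -0.87).

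Near the length limit the class passed smoothly into its neighbours. The regions just inside it had a mean length of 46 nt (194 regions), and the nearest region outside had 46.06 nt. The first 2 inside by position, chr1:12947143-12948622 and chr1:41920935-41922408, were at -0.74 and 0.32 in controls against -0.53 and 0.26 in PM2.5. The first 2 outside, chr20:3809995-3813725 and chr8:112788427-112790772, were at -1.02 and 0.06 in controls against -0.84 and 0.23 in PM2.5. Over the 450 regions within 0.2 nt inside the limit the mean was -0.148 ± 0.00822 in controls against -0.0219 ± 0.173 in PM2.5, and over the 308 within 0.2 nt outside it was -0.166 ± 0.0158 and -0.0265 ± 0.18 (n = 3 each, SD).

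Inner and outer probes of a region were compared next, the outer ones being the first 2 and last 2. This difference is taken within a region and an array, so the centre of the array drops out. In the 635 short-probe regions with at least 2 used probes of each kind, inner probes exceeded outer ones by 0.16, 0.19 and 0.20 on control replicates 1 to 3 and by 0.098, 0.14 and 0.12 on PM2.5 replicates 1 to 3. Every PM2.5 array lay below every control array. The gap was 0.18 ± 0.02 in controls against 0.12 ± 0.02 in PM2.5 (n = 3 each, SD; difference -0.067, exact two-sided permutation p = 0.1, 0.179 after adjustment). It was -0.0447 and -0.0586 within the 2 scanning days and -0.0353 when the regions were chosen anew without PM2.5 replicate 1. The sign was the same under 13 of 13 scalings and filters and the groups stayed apart in 12 of them. They overlapped after quantile normalization. They also overlapped when the gap was divided by the standard deviation over the class on the same array. That quotient was 0.336, 0.351 and 0.368 in controls against 0.203, 0.341 and 0.290 in PM2.5 (exact permutation p = 0.2, 0.294 after adjustment).

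The gap was smaller in PM2.5 in middle-length regions too, at 0.20 ± 0.02 in controls against 0.14 ± 0.01 in PM2.5 (n = 3 each, SD), without overlap. In long regions the groups overlapped, with a difference of -0.015 that was -0.00092 without PM2.5 replicate 1 (exact permutation p = 0.5, 0.694 after adjustment). The gap of short-probe regions minus that of middle-length regions was -0.010 ± 0.002 in controls against -0.023 ± 0.006 in PM2.5, a difference of -0.012 (exact permutation p = 0.1, 0.179 after adjustment). Inner probes were slightly shorter, with a mean length of 45.42 nt against 45.59 nt for outer ones. Among 45 nt probes alone, in 291 regions, the gap was 0.11, 0.10 and 0.10 in controls against 0.048, 0.083 and 0.077 in PM2.5, and the groups stayed apart. Marked spots on PM2.5 replicate 1 made up 53.7% of inner and 51.8% of outer probes.

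By position, the ratio in short-probe regions was highest at 200 to 400 bp from the middle on each of the 6 arrays and lowest at the ends. Probe length varied alongside, with a mean of 45.58 nt at 200 to 400 bp and 45.96 nt beyond 800 bp. Its part in this shape was not tested. On control arrays it was 0.058 ± 0.027 within 200 bp of the middle, 0.082 ± 0.020 at 200 to 400 bp, 0.043 ± 0.021 at 400 to 600 bp, -0.076 ± 0.013 at 600 to 800 bp and -0.123 ± 0.007 beyond 800 bp (n = 3 each, SD). In PM2.5 the corresponding means were 0.094, 0.11, 0.091, 0.022 and -0.011, with an SD of 0.15 to 0.18 and replicate 1 above the other 2 arrays. The groups overlapped at each distance. In middle-length regions the ends were lower still, at -0.63 in controls against -0.36 in PM2.5, and every PM2.5 array was above every control array at each distance.

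**Figure D4:**
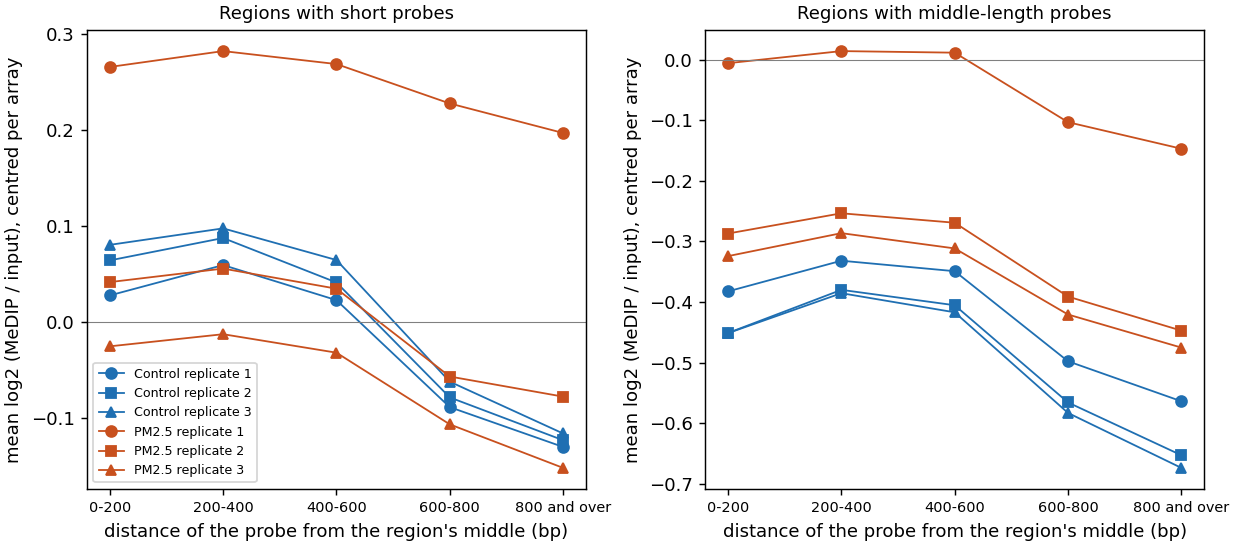
Mean log2 ratio of used probes by distance from the middle of the region (horizontal, bp) on each array, for short-probe (left) and middle-length regions (right, another vertical range), controls in blue and PM2.5 in orange. In short-probe regions the control ratio goes from 0.058 near the middle to -0.123 at the ends, and the groups overlap at each distance.

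Single regions differed widely in this gap. Inner probes were above outer ones on all 6 arrays in 235 of the 635 regions, below them on all 6 in 144, and the sign varied in 256. The median size of the gap regardless of sign was 0.52 in controls against 0.39 in PM2.5. In the 368 regions where inner probes were above outer ones over all arrays the gap averaged 0.63, 0.73 and 0.77 in controls against 0.54, 0.55 and 0.50 in PM2.5. In the 267 where they were below, it averaged -0.49, -0.56 and -0.57 in controls against -0.51, -0.43 and -0.42 in PM2.5. Both sets lay nearer to 0 in the PM2.5 means, and the second overlapped through PM2.5 replicate 1. The split used these values, so no test is given.

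Region by region, the gap was called smaller in PM2.5 in 4 of 635 short-probe regions (0.63%, against 1.17% of the 5819 regions tested for it) and larger in 0 (against 0.705%), by limma at an adjusted p under 0.05. Over both directions 1.87% of all regions passed. At an unadjusted p under 0.05, 76 of 635 were lower and 38 higher, against 800 and 554 of all 5819. The groups did not overlap in 96 short-probe regions with a lower gap in PM2.5 (15.1%, against 15.6% of all) and in 57 with a higher one (8.98%, against 11.5%), and 40.6% had a higher gap, against 45% of all. Without control replicate 2, control replicate 3 or PM2.5 replicate 2 no region passed, without PM2.5 replicate 3 there was 1, without PM2.5 replicate 1 there were 7 and without control replicate 1 there were 12. With the slide as a random block none passed. The counts without an array or with a block are not set against the shares over all regions, so they show only how the calls moved.

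In all 4 regions the inner probes stood above the outer ones. At chr1:264874995-264876698 (11 probes, 5 used) the gap was 1.91, 2.00 and 1.85 in controls against 0.31, 0.93 and 1.18 in PM2.5, a change of -1.11 ± 0.23 (SE; limma adjusted p = 0.0352). Its 2 inner probes averaged 1.27 and 1.11 in controls against 0.61 and 0.84 in PM2.5, and its 3 outer probes were higher in PM2.5. One outer probe, of 48 nt, was read in Cy5 on no array of either group, so its part is no measured change. Without PM2.5 replicate 1 the change was -0.48 and did not pass (limma adjusted p = 0.0876), while the next 2 regions passed, at -0.87 and -0.84.

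At chr1:251870031-251871593 (10 probes, 6 used) the gap was 1.42, 1.86 and 2.16 in controls against 0.82, 0.74 and 0.75 in PM2.5 (change -1.04 ± 0.22, limma adjusted p = 0.0352). This was the 1 region that also passed in the test of region means, where it was higher in PM2.5 by 0.50 (limma adjusted p = 0.0458). Its 3 used outer probes went from control means of -1.77, -1.03 and -1.03 to -0.65, 0.11 and -0.22 in PM2.5. Its 3 used inner probes, all of 45 nt, were at 0.64, 0.81 and 0.17 in controls against 0.67, 0.62 and 0.27 in PM2.5. The narrower gap in this region thus lay in its ends, of which 2 probes were 49 nt long and read in Cy5 on 1 of 3 control arrays and 3 of 3 PM2.5 arrays.

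At chr5:156634563-156636135 (9 probes, 5 used) the gap was 2.23, 2.92 and 3.00 in controls against 1.98, 1.51 and 1.65 in PM2.5 (change -1.01 ± 0.24, limma adjusted p = 0.0486). Its 3 outer probes were higher in PM2.5, at group means of -2.25 against -1.84, -2.50 against -1.49 and -1.84 against -1.03, and its 2 inner probes lower, at 0.28 against 0.21 and 0.76 against 0.31. The 48 nt outer probe was read in Cy5 on 2 control arrays and no PM2.5 array, so its PM2.5 value is a bound. The fourth region, chr10:14823459-14825076, was named after its values were seen. Its gap was 1.36, 1.73 and 1.82 in controls against 0.66, 0.94 and 0.72 in PM2.5 (change -0.86 ± 0.20, limma adjusted p = 0.0486), from 2 inner and 2 outer probes.

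No change the other way passed; the 3 with the smallest p, of those with at least 3 used probes and no overlap, were these. At chr5:136496295-136497691 the gap was 0.37 ± 0.09 in controls against 1.13 ± 0.23 in PM2.5 (n = 3 each, SD; limma adjusted p = 0.0631). At chr6:39496221-39497917 and chr2:203765695-203767182 the outer probes stood above the inner ones, at -2.22 ± 0.62 and -1.63 ± 0.15 in controls against -1.16 ± 0.31 and -0.87 ± 0.27 in PM2.5 (limma adjusted p = 0.0631 and 0.0657). On chromosome 6, 1 of the 2 used inner probes, of 49 nt, was read on no array of either group, so its part of the gap is no measured change. On chromosome 2 the 51 nt inner probe was read on 1 control and 2 PM2.5 arrays, and on chromosome 5 the 51 nt inner probe was read on 1 control and 3 PM2.5 arrays. Without PM2.5 replicate 1 the 3 changes were 0.41, 0.53 and 0.37. The lack of overlap in these 3 regions was a condition of their choice. On chromosomes 6 and 2 the gap was nearer to 0 in PM2.5.

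**Figure D5:**
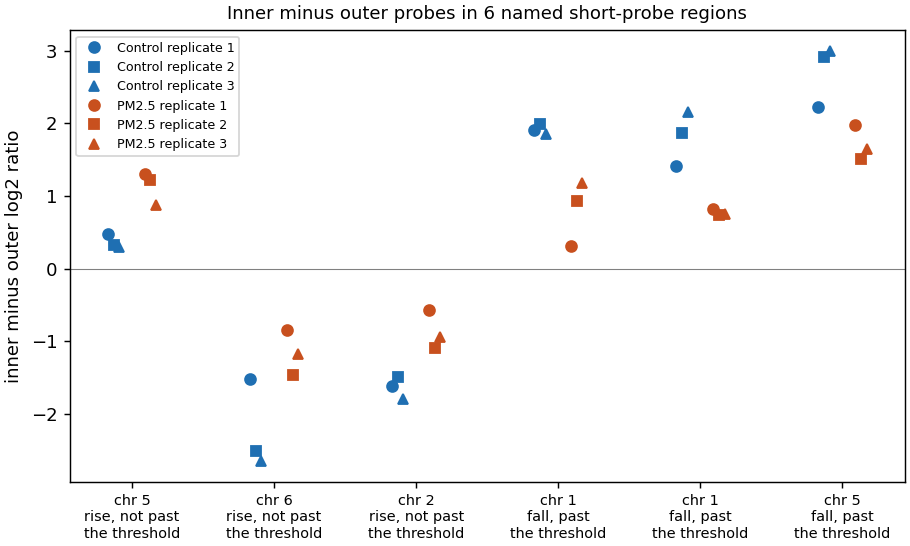
Inner minus outer log2 ratio on each array in the 6 named short-probe regions, controls in blue and PM2.5 in orange. In the 3 regions past the threshold the PM2.5 arrays lie below the controls, and in the chromosome 6 and 2 regions, which did not pass, they lie nearer to 0 than the controls.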

How the data were processed

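MeDIP DNA (Cy5) and input DNA (Cy3) of 3 control and 3 PM2.5 heart samples were hybridised to 6 arrays. Scanner output of Feature Extraction 11.0.1.1 was deposited; the processed intensity in both channels had, per the file headers, background subtracted, spatial trends removed and dyes balanced, and probe coordinates are on rn4. The authors also deposited a table of log2 values whose direction follows MeDIP over input and whose scale and smoothing are unknown (array medians -0.006, 0.00204, 0.00784, 0.0219, 0.0233 and 0.027); it was used as an alternative only.

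The log2 ratio of processed signals was centred on each array's median over unmarked probes with input well above background. All tested regions were fitted with lmFit and eBayes (limma 3.58.1, R 4.3.3) with Benjamini-Hochberg adjustment, and only short-probe regions are reported. The fit was tested on simulated data with independent noise on each array. That setting leaves out a shared slide or an array that stands apart. Per-array values were compared by exact two-sided permutation tests, which with 3 against 3 cannot go below 0.1. Precision is limited by the number of arrays. Means over regions treat all tested regions alike.

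Named regions were, of those that passed without overlap between groups, the 5 that rose and the 5 that fell most (for inner minus outer, 3 each), topped up in order of unadjusted p from regions holding 3 or more used probes, the 3 highest and 3 lowest control levels with at least 4 used probes, and 2 regions on each side of the length limit. The rule for the short-probe class uses no measured value, but the regions and the tests were chosen with earlier results of these data known.

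Same-numbered control and PM2.5 arrays are not paired by the labels. Scanning day 1 held control replicate 1 and PM2.5 replicate 3. Day 2 held control replicates 2 and 3 and PM2.5 replicate 2, and day 3 held PM2.5 replicate 1. Control replicates 2 and 3 carry the same scan time and were therefore taken to share a slide, which the labels do not state. Alternatives covered centring, marked spots, normexp (offset 50), scale, quantile and loess (span 0.3) normalization, filters, probe length, blocks, variance models, the definition of outer probes (the first and last only, or those in the outer 0.25 of the span at each side) and each array left out. Leaving out an array chose the used probes anew. One alternative, a centre of its own for each probe length, was chosen after seeing the data. Figures were drawn with matplotlib.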

Additional observations from a re-analysis of the deposited data

How the results depend on the processing

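The excess of short-probe over middle-length regions was smaller in PM2.5 under each alternative tried, at -0.112 with marked spots kept, -0.0897 (normexp), -0.102 (scale), -0.0907 (quantile), -0.0966 (loess), -0.0827 with both channels well above background, -0.0638 in the authors' values, -0.0367 for 45 nt probes only, -0.0534 with each probe length centred by itself, -0.105 within scanning day 1, and -0.2 to -0.101 with each array left out in turn. The inner minus outer gap was also smaller in each, at -0.0418 (scale), -0.0392 (quantile), -0.0248 (authors' values), -0.0361 (45 nt only), -0.0342 (outer probes taken by span), -0.0447 within day 1 and -0.0863 to -0.0353 with an array left out.

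The mean of the short-probe regions reversed to -0.128 with the common centre, -0.0697 with marked spots kept, -0.0162 with loess, -0.0275 with no filter on input, -0.00881 with both channels above background, -0.0707 in the authors' values, -0.00864 for 45 nt probes, -0.0466 and -0.011 within days 1 and 2, and ranged from -0.0664 to 0.122 with an array left out. The standard deviation differed by -0.0385 with marked spots kept, -0.028 (scale), -0.0177 (quantile), 0.0058 in the authors' values (a reversal), -0.141 within day 2 and -0.116 to -0.0677 with an array left out.

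Of region means, 24 passed; 0 passed with normexp, scale, quantile, the authors' values, 45 nt probes only, the slide as a block or length centring. There were 6 with no filter, 2 with both channels above background, 13 with at least 5 used probes, 5 with trend and robust estimation, 109 with the day as a block and 0 to 36 with an array left out. Of gaps, 4 passed; 0 passed with marked spots kept, normexp, scale, quantile, no filter, the authors' values, 45 nt only, the slide block, trend and robust estimation, outer probes as first and last only, or length centring. There were 2 with both channels above background, 8 with loess and 8 with outer probes taken by span. With the day block there were 42, and 0 to 12 with an array left out. In both day-block fits PM2.5 replicate 1, alone on its day, added nothing to the comparison of groups. With the replicate number as a block (replicate block) 65 region means and 9 gaps passed. The counts under the alternatives are not set against the shares over all tested regions, so none is read as particular to the short-probe regions. Same-numbered arrays did not deviate together (r = -0.00814, 0.113 and -0.148), so the numbers were not read as pairs.

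Of the named regions, chr8:113319966-113321715 and chr6:133131120-133132874 turned to -0.0654 and -0.0701 in the authors' values. The low region chr19:52148836-52150509, which did not pass, turned to -0.0116 (quantile), -0.0598 (loess), -0.188 (both channels), -0.183 (authors' values) and -0.167 (45 nt only). The cause of these shifts was not tested. Regions rest on a median of 4 used probes, and dim Cy5 limits the rises.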
